A study of Homo sapiens with 2 samples.

Results

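The subtelomeric peaks of a TCF12 ChIP-seq experiment are described here. They are the listed peaks of chromosomes 1 to 22 whose summit, the position with the most ChIP reads, lay in the outer 3 Mb of a chromosome arm. The long-arm end was counted from the largest peak end listed on each chromosome, and the short-arm end from base 1. The short arms of chromosomes 13, 14, 15, 21 and 22 were left out, so that 17 short-arm and 22 long-arm ends remained. They held 4068 peaks, 1667 at short-arm and 2401 at long-arm ends, of the 63549 listed on chromosomes 1 to 22 and the 64251 listed in all. The rule used position alone and no read count, fold enrichment or significance, though the long-arm limit rests on where the last peak was listed.

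Hep3B is an established human hepatocellular carcinoma cell line. Its chromatin was precipitated with a TCF12 antibody, and input DNA without antibody served as the control; no other treatment or genotype was named for either library. With a single library of each kind, replicates were lacking and no p-value was computed. MACS2 used 10254561 ChIP and 8862145 input tags. Intervals below are exact 95% intervals that cover counting error only and treat each listed peak as 1 event.

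TCF12, also called HEB, is a basic helix-loop-helix protein of the E protein family. It binds E-box DNA as a dimer, often with tissue-specific partners that are also basic helix-loop-helix proteins. Subtelomeres are the stretches next to the telomere repeats. Their outermost part is a patchwork of blocks that several chromosomes share, where a short read can match more than 1 place, and on many arms the sequence further in is rich in GC and in genes. A genome and annotation of hg19, the build of the peak table, were not used here, so sequences and genes at these peaks are not given.

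Peaks were more frequent at the chromosome ends than in the rest of the same chromosomes, but not more frequent than in the next 3 Mb inward. The ends held 34.8 peaks per Mb (33.7 to 35.9), and the rest held 59481 peaks at 23.5 per Mb (23.3 to 23.7). The ratio was 1.48 (1.43 to 1.53). For this ratio, stretches of over 1 Mb without a summit, such as centromeres, were taken off the length of the rest. The next 3 Mb inward of the same 39 ends held 4544 peaks at 38.8 per Mb (37.7 to 39.98), so the ends had 0.895 times that density (0.858 to 0.934). Of the 39 ends, 24 held fewer peaks than their own next 3 Mb and 13 held more.

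The long-arm ends were denser than the short-arm ends when pooled, with 36.4 peaks per Mb (34.9 to 37.9) against 32.7 (31.1 to 34.3), a ratio of short to long of 0.898 (0.844 to 0.957). On the 17 chromosomes with both ends the ratio was 0.925 (0.865 to 0.989). With ends of 1 and 2 Mb it was 0.956 (0.857 to 1.07) and 0.927 (0.857 to 1.003), so that both intervals held 1. The windows also began differently. Long-arm windows began at the last listed peak, with the outermost summit at most 251 bp in. Short-arm windows began at base 1, with the outermost summit 11.5 to 163 kb in. This lowers the short-arm density against the long-arm density, by an amount that was not tested. The direction was not shared by the chromosomes: the long-arm end held more peaks on 9 of the 17 and the short-arm end on 8. Against the rest, 10 of 17 short-arm and 18 of 22 long-arm ends were denser. The interval of the ratio lay above 1 for 7 short-arm and 15 long-arm ends and below 1 for 4 and 2.

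Single ends differed 6.09-fold in their number of peaks. The densest was 12p, the end of the short arm of chromosome 12, with 201 peaks or 67.0 per Mb (58.1 to 76.9). It was followed by 6p with 60.7 per Mb, 19q with 58.3, 15q with 55.7, 3q with 54.3 and 12q with 53.7. The intervals of these 6 ends overlap, so their order is not resolved. The sparsest was 9p with 33 peaks or 11.0 per Mb (7.57 to 15.4), next to 18p with 11.3, 3p with 13.3 and 4q with 19. The remaining 29 ends held between 60 peaks (11q) and 153 peaks (5p), and the median of all 39 was 96 peaks or 32 per Mb. On chromosome 3 the ends lay on opposite sides of the rest, which held 22.6 peaks per Mb: 3p reached 0.591 times that density (0.422 to 0.807) and 3q 2.41 times (2.05 to 2.82).

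**Figure D1:**
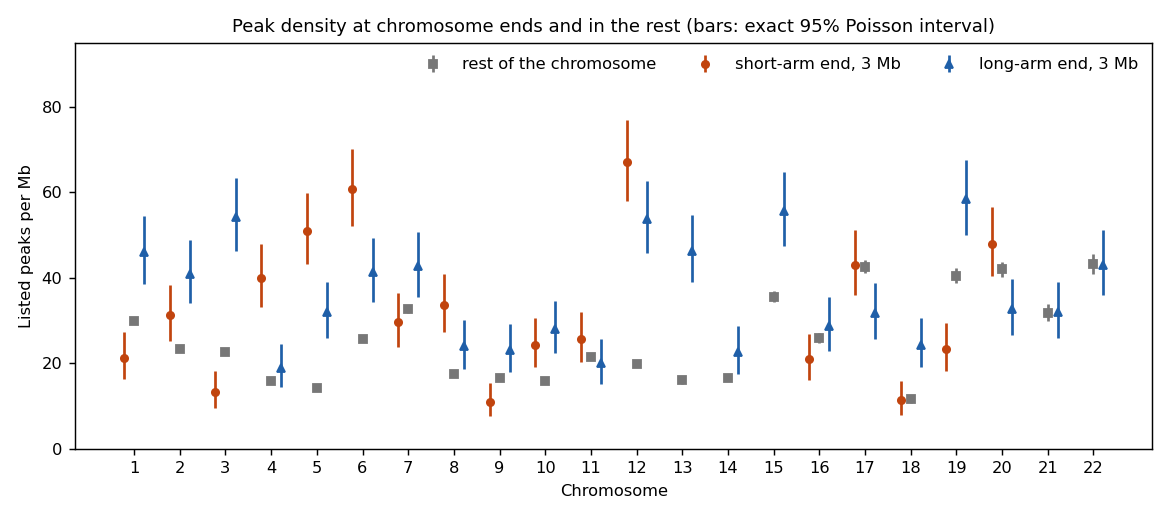
Listed peaks per Mb (vertical axis) in the 3 Mb short-arm end (circles), the 3 Mb long-arm end (triangles) and the rest (squares) of chromosomes 1 to 22, with exact 95% Poisson intervals as bars. The end 12p is highest at 67.0 per Mb and 9p lowest at 11.0, and on chromosome 3 the ends lie on either side of the rest.

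Compared within each chromosome, the ends together were denser than the rest on 18 of 22 chromosomes, and for 12 of them the interval of the ratio lay above 1. It lay below 1 for none, though the upper limit for chromosome 17 was 1.00. The ratio was largest on chromosome 12, where the ends held 60.3 peaks per Mb and the rest 19.8, a ratio of 3.05 (2.72 to 3.41). Chromosome 5 followed at 2.94 (2.57 to 3.35) and chromosome 13, by its long-arm end alone, at 2.89 (2.41 to 3.46). The ratios were 1.98 on chromosome 6, 1.87 on chromosome 4 and 1.65 on chromosome 10. The smallest were 0.876 on chromosome 17 (0.761 to 1.00), 0.962 on chromosomes 20 and 16 and 0.994 on chromosome 22. Chromosomes 17, 20 and 22 held between 41.9 and 43.2 peaks per Mb in their rest, the highest densities of the 22. The chromosomes with the 3 largest ratios held 14.1 to 19.8.

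The density did not fall or rise steadily with distance from the end. In steps of 0.5 Mb over all 39 ends, it was 35.8 peaks per Mb (33.2 to 38.6) in the outermost step, 27.7 (25.5 to 30.2) between 1.0 and 1.5 Mb and 39.4 (36.7 to 42.3) between 2.5 and 3.0 Mb. Just past the 3 Mb limit, between 3.0 and 3.5 Mb, it reached 44.2 (41.3 to 47.3), the highest of the 20 steps up to 10 Mb. The lower density between 1.0 and 1.5 Mb was present in both kinds of end, with 26.1 per Mb at short-arm and 29 at long-arm ends. It was matched between 7.5 and 8.0 Mb, also at 27.7. All 20 steps lay above the 23.5 per Mb of the rest as a whole, to which most of these steps belong.

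**Figure D2:**
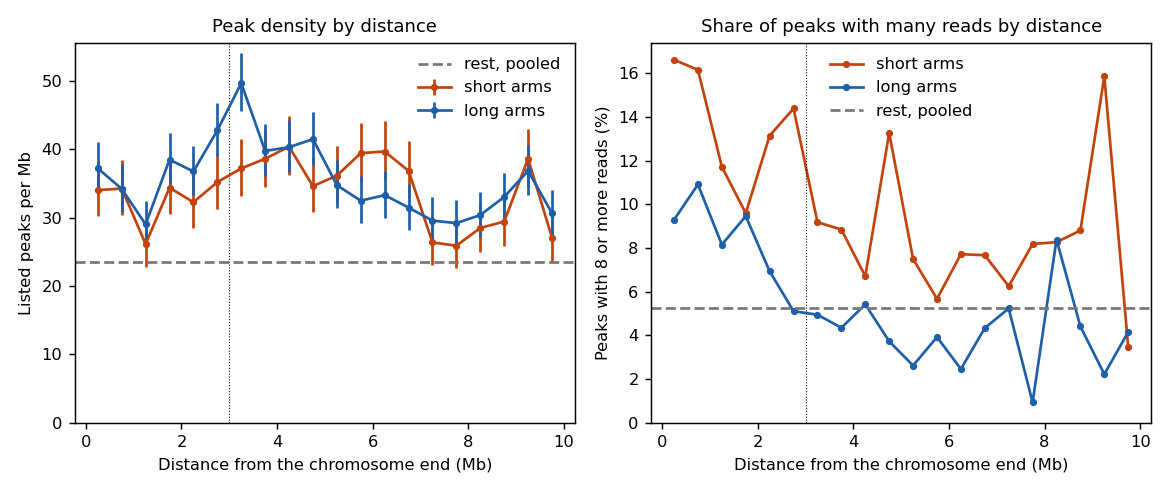
Listed peaks per Mb with exact 95% Poisson intervals (left) and the share of peaks with 8 or more reads at the summit in percent (right), by distance from the chromosome end in steps of 0.5 Mb, for 17 short arms and 22 long arms. The dashed line is the pooled rest and the dotted line the 3 Mb limit. On the long arms the density is highest just inward of the limit. On the short arms the share of peaks with many reads is 16.6% and 16.2% in the outermost 2 steps.

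Peaks at the ends had more ChIP reads at the summit and a higher input background, without a higher fold enrichment. A peak over a higher background needed more reads to be listed, so these measures are not independent. The median was 5 reads at the ends and in the rest, and the mean 5.47 and 5.03. A peak of 8 or more reads was found in 5.59% of all peaks of chromosomes 1 to 22. At the ends 425 peaks, or 10.4% (9.52 to 11.4), reached it, against 5.25% (5.08 to 5.44) in the rest. The share was 13.7% at short-arm ends (12.1 to 15.4) and 8.20% at long-arm ends (7.14 to 9.38), and it was higher than in the rest of the same chromosome at 30 of the 39 ends. The next 3 Mb inward had 6.01% (5.33 to 6.74). The ends 2p, 3p and 18p had 0 such peaks among 94, 40 and 34, which allows shares of up to 3.85%, 8.81% and 10.3% by the exact binomial interval. The ends 7p and 19p, chosen for mention after their values were seen, supplied 93 of the 425, and without them the share was 8.95% at short-arm ends (7.56 to 10.5) and 8.49% at all ends.

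The background is the input level that MACS2 expected at the summit, taken from the input around the peak or, where that was lower, from a genome-wide level of 0.763 reads. That level was set with the mouse genome size, and a larger size would lower it. The background was above the genome-wide level in 51.8% of all peaks of chromosomes 1 to 22. At the ends the share was 66.1% (64.6 to 67.6) against 50.8% (50.4 to 51.2) in the rest, and it was higher at 31 of 39 ends than in the rest of the same chromosome. Short-arm ends, with 65.0% (62.7 to 67.3), and long-arm ends, with 66.8% (64.9 to 68.7), had overlapping intervals. The share ranged from 29.4% at 18p to 96.6% at 7p. Backgrounds that could come only from the input window of 10 kb made up 21.3% at the ends and 10.7% in the rest, while those from input reads at the summit itself made up 23.8% and 23.5%.

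The higher density of the ends lay mostly in the peaks whose background was above the genome-wide level. Such peaks numbered 23 per Mb at the ends and 12 in the rest, a ratio of 1.92 (1.85 to 2.00). Peaks at the genome-wide level numbered 11.8 and 11.6 per Mb, a ratio of 1.02 (0.964 to 1.08). Without 7p and 19p these ratios were 1.91 (1.83 to 1.99) and 1.07 (1.01 to 1.13), so that the second interval then lay above 1. By reads at the summit, the ratio was 1.24 (1.19 to 1.29) for peaks of 3 to 5 reads, 1.87 (1.76 to 1.98) for 6 or 7 reads and 2.94 (2.65 to 3.25) for 8 or more. Without 7p and 19p the ratio for 8 or more reads was 2.42 (2.15 to 2.71). Each class was counted per Mb of the whole region, since the length of sequence at each background level was not measured. The ratios therefore do not compare how often peaks occur at a given background. Copy number, mappability and GC content were not measured, and their part in these ratios was not tested.

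The measures that set ChIP against input differed little between the ends and the rest. Every listed peak had passed the same p cutoff of 0.05 against its own background. Close values in both regions are therefore in part set by the listing. The median fold enrichment was 2.53 in both, and the mean was 2.67 at the ends and 2.70 in the rest. The mean was lower than in the rest of the same chromosome at 25 of the 39 ends and higher at 14. A −log10 p of at least 3 was reached by 19.1% of end peaks (18.0 to 20.4) and 18.6% of the peaks in the rest (18.3 to 18.96), beside 18.7% over chromosomes 1 to 22. A fold enrichment of at least 5 was reached by 6 end peaks, or 0.147% (0.0541 to 0.321), beside 0.0787% over chromosomes 1 to 22. Of these 6, 3 lay within 8098 bp at 7q. Peak lengths were also close, with a median of 200 bp at the ends and 193 bp in the rest, and 34.6% and 37.3% of the peaks had the minimum length of 161 bp. The median distance between neighbouring summits was 15.4 kb at short-arm ends, 15.5 kb at long-arm ends and 18.6 kb in the rest.

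Across the 39 ends, the share of peaks with a background above the genome-wide level did not go with the density of peaks (Spearman rho 0.11). Across the rests of the 22 chromosomes the same rho was 0.91. The ends and rests come from the same pair of libraries, and both measures from the same listed peaks, so these are descriptions. The highest shares were at 7p, with 96.6% and 29.7 peaks per Mb, 19p, with 95.7% and 23.3, and 8q, with 94.4% and 24.0. All of these lay below the median density of 32 per Mb. At 13q, a share of 88.5% went with 46.3 per Mb. The densest end, 12p, had a share of 61.2%. The density of an end followed that of the rest of its chromosome only loosely (rho 0.32).

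**Figure D3:**
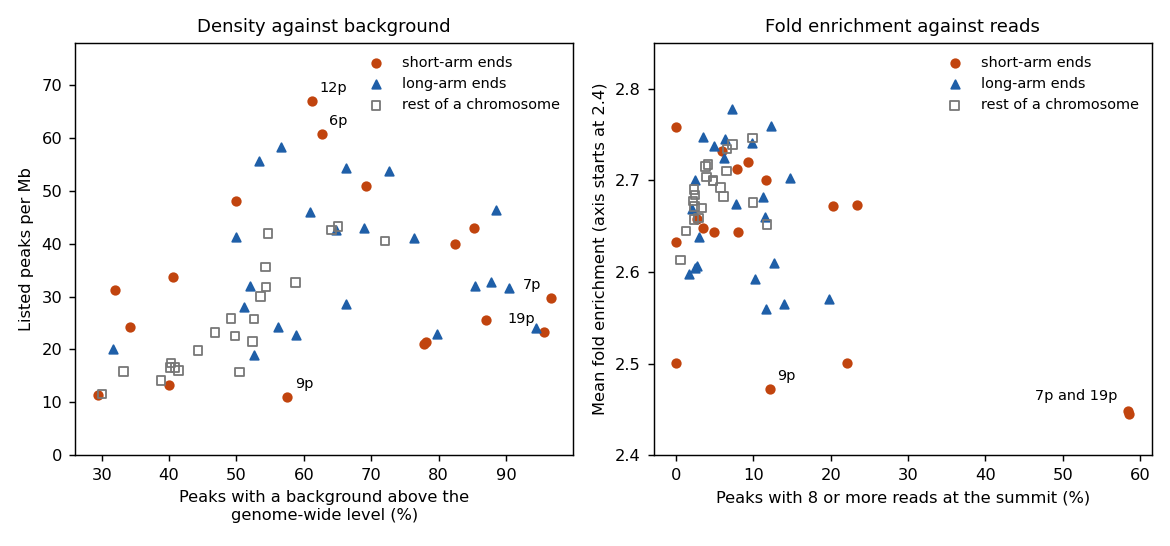
Left, listed peaks per Mb against the percentage of peaks with a background above the genome-wide level. Right, mean fold enrichment, on an axis that starts at 2.4, against the percentage of peaks with 8 or more reads at the summit. Each circle is a short-arm end, each triangle a long-arm end and each open square the rest of a chromosome. The squares rise together on the left (rho 0.91) and the ends do not (rho 0.11). On the right, 7p and 19p stand apart with over 58% of peaks at 8 or more reads and the lowest mean fold enrichments of all ends.

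The ends 7p and 19p differed from the other 37 in read level. At 7p, 52 of 89 peaks had 8 or more reads (58.4%), against 9.87% in the rest of chromosome 7. At 19p, 41 of 70 had them (58.6%), against 9.97% in the rest of chromosome 19. The share at the other 37 ends was at most 23.3%, at 4p. Both ends had a median of 8 reads at the summit, and a median background of 2.27 reads at 7p and 2.09 at 19p, against 0.773 in the rest of chromosomes 1 to 22. Where the background could come only from the 10 kb input window, that window held a median of 144 input reads at 7p (38 peaks) and 120 at 19p (24 peaks), against 73 at the other ends and 67 in the rest. The genome-wide level corresponds to 47.4 input reads in such a window, so lower counts are not visible in the table. Mean fold enrichments of 2.45 at 7p and 2.44 at 19p were the lowest of the 39 ends. At the listed summits of these stretches, both the ChIP reads and the input background were high. A peak over a higher background needs more reads to be listed but can pass at a lower fold enrichment. The high ChIP reads and low fold enrichments are therefore in part set by the listing. ChIP reads outside the listed peaks were not measured. Of the 159 peaks at these 2 ends, 0 had a q under 1, which allows a share of up to 2.29% by the exact binomial interval.

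The stretches ended at different distances. On chromosome 7, the share of peaks with 8 or more reads was 45.5%, 62.5% and 67.5% in the first 3 intervals of 1 Mb, and 5.48% in the next, where the median background fell from 2.29 to 1.00. It was 37.5% again between 5 and 6 Mb. On chromosome 19, the share was 43.8% in the first interval, 12 of 15 peaks in the second and 65.2% in the third, stayed at 55.6% and 62.2% up to 5 Mb, and was 16.2% between 5 and 6 Mb. Over chromosomes 1 to 22, 1960 intervals of 1 Mb held at least 10 peaks, and in 22 of them at least 40% of the peaks had 8 or more reads. Of these 22 intervals 6 were the outer 3 Mb of 7p and 19p. In all, 124 of the 1960 intervals overlapped an end, and 7 of these were among the 22, the last of them at 17q.

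**Figure D4:**
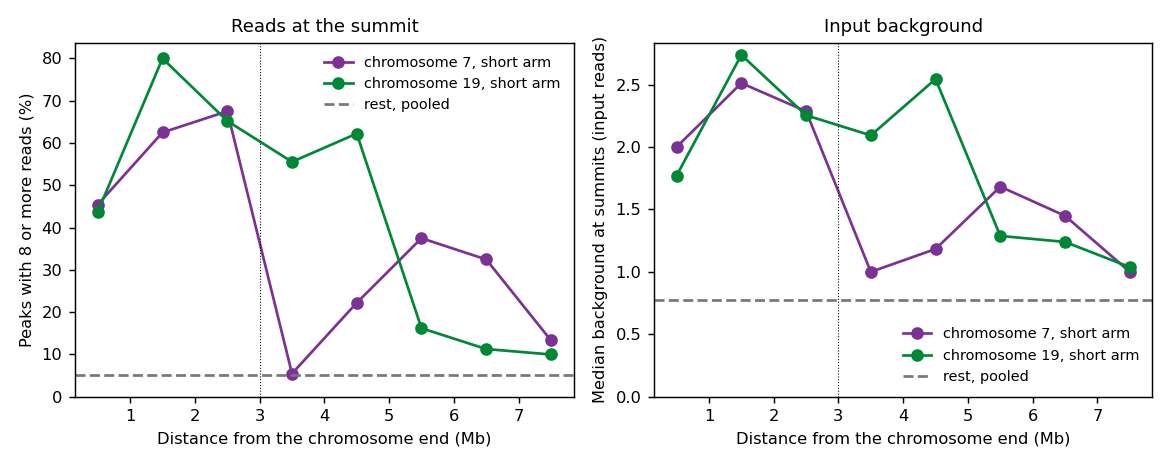
Share of peaks with 8 or more reads in percent (left) and median input background at the summits in reads (right), per 1 Mb from the short-arm end of chromosomes 7 and 19. The dashed line is the pooled rest and the dotted line the 3 Mb limit. Both measures drop at 3 Mb on chromosome 7 and at 5 Mb on chromosome 19.

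The 3 densest ends showed no such rise in reads where their peaks were most crowded. The densest 200 kb of 12p, between the summits 2449662 and 2649072 of chromosome 12, held 35 peaks, 17.4% of that end, or 175 per Mb. They had 3 to 8 reads with a median of 5, a median background at the genome-wide level of 0.763 and a largest −log10 p of 4.81. The densest 200 kb of 6p, from 893859 to 1093244 of chromosome 6, held 23 peaks with 3 to 10 reads. That of 19q, from 57403717 to 57596512 of chromosome 19, held 26 peaks with 3 to 6 reads. None of the peaks in these 3 windows had a q under 1.

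A q under 1, the adjusted significance that MACS2 listed, was rare everywhere. It was found for 17 of the 4068 end peaks, or 0.418% (0.244 to 0.668), beside 0.301% of all peaks of chromosomes 1 to 22. The other 4051 end peaks had a q of 1. Of the 17 peaks, 4 lay at short-arm and 13 at long-arm ends. They were spread over 12 ends, with 3 at 7q, 3 at 6q, 2 at 13q and 1 at each of the other 9.

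The strongest of these peaks by −log10 q and −log10 p was also the first of the whole table by both measures. By reads and by fold enrichment it was not, since peaks in the rest reached 94 reads and a fold of 9.84. It lay at 16p on hg19 at chr16:896649-897133, 897 kb from the end, with 43 reads at the summit (31.1 to 57.9). The input reads at the summit itself gave a background of 4.00. Fold enrichment reached 7.63 and −log10 q 14.8. It stood nearly alone, with 1 other listed peak within 50 kb, 35363 bp away. The 16p end around it was sparse, with 21 peaks per Mb, and 5 of its 63 peaks had 8 or more reads.

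The second was at 2q, at chr2:240566115-240566639, with 14 reads (7.65 to 23.5) over a background of 1.00. Fold enrichment was 6.55 and −log10 q 3.88. The next 3 lay together at 7q. They were chr7:158134948-158135275 with 18 reads (10.7 to 28.4), chr7:158127178-158127385 with 12 and chr7:158128926-158130494 with 12, at −log10 q values of 3.18, 2.14 and 1.71. With 3 weaker peaks between them, of 3, 6 and 10 reads, they formed a run of 6 listed peaks over 8098 bp. The peak that starts at 158128926, 1569 bp long, was the longest of all end peaks. The run had backgrounds of 0.763 to 2.00 reads, and 11 peaks were listed between 50 kb before and 50 kb after it.

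The next, at 6q, was the one nearest to an end, as counted here, among the 10 strongest. It lay 57.0 kb from the last listed peak end of chromosome 6, at chr6:170968668-170969665, with 10 reads and −log10 q 1.11. A peak at 8p had 23 reads (14.6 to 34.5), second only to 16p among these 17 peaks, but a background of 5.00 and so a fold enrichment of 3.48. The last 3 of the 10 strongest were at 4q with 17 reads, at 11p with 14 and at 13q with 11, with −log10 q values of 0.587, 0.514 and 0.505. The other 7 had 9 or 10 reads and −log10 q values from 0.134 to 0.50. The 52 and 41 peaks of 8 or more reads at 7p and 19p, with up to 29 and 14 reads, all had a q of 1.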

How the data were processed

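The ChIP and the input library of Hep3B cells were assigned by their labels. Per the submitters' processing notes, CASAVA 1.4, Bowtie2 2.0, Picard 2.19.0 and MACS2 2.1.2 were used on hg19. The header of the deposited table gives a p cutoff of 0.05, 1 tag kept per position, a fragment length of 161 bp and an effective genome size of 1870000000 bp, the mouse preset, which sets the genome-wide background. The pileup deposited by the authors is a signal, the extended ChIP reads at the summit scaled to the input. The fold enrichment the authors deposited is a ratio with a pseudocount of 1 on both terms. The −log10 p and −log10 q values are also as deposited; the header says that q is not calculated, but the column holds values, used as they stand.

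Reads were recovered by dividing the pileup by 0.864, which gave whole numbers for 100% of the peaks within 0.0051 scaled reads, and the background from reads and fold enrichment. Its source was read from its value, since 1 input read is worth 1 at the summit and 0.0161 in the window of 10 kb; the window of 1 kb could not always be told from that of 10 kb. Densities have exact Poisson intervals, ratios of densities exact conditional binomial intervals, and shares exact Clopper-Pearson intervals. The ratios of densities and their intervals were tested on simulated data with independently placed summits, so crowding of peaks was not covered.

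Named were the 6 densest and 4 sparsest ends, the 6 largest and 4 smallest chromosome ratios, the 10 end peaks with the largest −log10 q, and the densest 200 kb of the 3 densest ends; others are given as examples. The ends, lines and lists were chosen with earlier results of these data known. Computations ran in Python 3.11.15 with scipy 1.17.1, numpy 2.4.6 and pandas 2.3.3, and plots in matplotlib 3.10.9.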

Additional observations from a re-analysis of the deposited data

How the results depend on the processing

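The ratio of peak density between ends and rest, 1.48, reversed to 0.895 against the next 3 Mb only. It was 1.42 with ends of 2 Mb, 1.61 with 5 Mb and 1.57 with all of the span of the rest. It was 2.11 for peaks with a −log10 q above 0, from 17 end peaks, and 2.95 for a fold enrichment of at least 5, from 6. In both cases 3 of the end peaks lay in the single run at 7q, so they are not separate places. The ratio of short-arm to long-arm ends, 0.898, was 0.815 (0.703 to 0.943) with a −log10 p of at least 3. With a −log10 q above 0 it was 0.398 (0.0946 to 1.29), from 4 and 13 peaks, and the interval held 1. With ends of 1 and 2 Mb it was 0.956 and 0.927, and the intervals held 1. The share of end peaks with a background above the genome-wide level was 69.5%, 67.7% and 63.0% with ends of 1, 2 and 5 Mb. The share with 8 or more reads was 12.7% with 1 Mb, 8.74% with 5 Mb and 8.49% without 7p and 19p, an alternative chosen after seeing the data. All other alternatives, among them any overlap in place of the summit and leaving out chromosome 16, left these values, and the share with a q under 1, within the intervals of the values reported. The genome-wide background rests on the mouse preset of the genome size, and peaks were not called again with another size. Which weak peaks were listed depends on it. So do the densities, the shares above the genome-wide level and the ratios by background. How far they would change was not tested. Weak peaks rest on as few as 3 reads, so single peaks are uncertain. No paired analysis was possible because there was a single ChIP and a single input library.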
